A study of Homo sapiens with 8 samples.

Results

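The vesicle traffic and secretory pathway genes were taken by symbol: a protein-coding gene was a member if its symbol starts with RAB, ARF, SEC, VPS, SNX or COP followed by a number, or is COPA, COPB1, COPB2, COPE or COPG1, with regulators and complex partners whose symbols begin the same way kept. The rule uses no measured value, although the list was proposed with earlier results of these data known. The annotation holds 179 such genes, and 77 of them carried at least 1 assigned peak, out of 9098 genes with an assigned peak. COP1 is a member by its symbol alone, since it encodes a ubiquitin ligase of the cell nucleus and cytosol rather than a coat protein.

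The values come from acetylated RNA immunoprecipitation (acRIP), in which an anti-ac4C antibody pulls down fragments of poly(A) RNA. N4-acetylcytidine (ac4C) is a modified base that the acetyltransferase NAT10 writes. The 2 human osteosarcoma lines 143B and HOS were each profiled as a control labelled NC and as a NAT10 knockout labelled sgNAT10, with 1 acRIP library for each. 143B was derived from HOS, so the lines share most of their genome. The labels give the genotype of each group with no further allele, clone or treatment, so how many clones stand behind a knockout culture is not given in the sources used here. Values are read counts over peak intervals, summed for each gene, and the 2 lines are the only repeats of the genotype.

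Proteins bound for secretion, for membranes or for lysosomes enter the endoplasmic reticulum (ER) through the SEC61 channel, have their signal peptide removed by signal peptidase, and leave in vesicles coated by COPII. COPI coats carry material back from the Golgi apparatus. Rab and Arf GTPases mark each compartment and recruit tethers, motors and coats, while sorting nexins and the VPS proteins of retromer, HOPS, CORVET, ESCRT and GARP sort cargo between endosomes, lysosomes and the Golgi. In bone-forming cells, the lineage that osteosarcoma resembles, this route carries the collagen and other matrix that the cells secrete.

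Peak totals ranged from 20107718 to 24785306 counts per library. The 77 members held 0.0761% to 0.147% of them. Counts were put on a common scale as CPM (counts per 1000000 counts of the library) with TMM factors of 0.731 to 1.26. One library differed from the rest: the Spearman correlations across peaks of 143B sgNAT10 with the others were 0.583 to 0.718, against 0.803 to 0.865 among those. The targeted gene went against its label in 143B: NAT10 had 65 counts in 143B NC and 130 in the 143B library labelled sgNAT10, against 180 and 63 in HOS. On the common scale these were 3.26 and 4.61 CPM in 143B and 9.94 and 2.73 CPM in HOS. Every direction in 143B thus rests on a label that this check does not bear out. Which part of NAT10 was changed is not given in the sources used here, and its peaks may lie outside that part. These counts also mix RNA level with enrichment, so they cannot settle the label either way. Of 12 mesenchymal and osteoblast markers 7 had a peak, with summed levels of 285 to 1022 CPM led by VIM, while COL1A1, COL1A2, BGLAP, TWIST1 and FN1 had no assigned peak. Epithelial and endothelial markers had peaks for 2 of 6 and 2 of 4 genes, and their sums were highest in the HOS library labelled sgNAT10, at 37.005 and 39.2 CPM against 1.21 to 4.06 and 2.59 to 8.34 CPM elsewhere. CDH1 (812 counts there) and KDR (855 counts) made up most of these sums. Of 6 haematopoietic markers 2 had a peak, at summed levels of 0.221 to 1.08 CPM. The part of these differences in any result below was not tested. In bulk samples, fewer cells of a type and less RNA per cell cannot be told apart.

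The member genes differ in length and peak number, so levels are compared between libraries and not between genes. The members held 131 peaks of 95 to 1789 bp (median 140 bp). A single peak was assigned in 52 members, and the most, 10, in RAB38. Of these peaks 15 also overlapped a second annotated gene, and with the strand setting not given their reads cannot be split between both. ARF3, RAB5A and RAB5IF had only peaks shared with another protein-coding gene, and these were left unassigned. ARF1, ARF4, ARF5, COPE, COPG1, RAB1A, RAB11A, SEC23A, SEC23B and VPS35 were among the members without an assigned peak.

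Since COPI, COPII and ER entry genes are known targets of the stress sensors ATF6 and XBP1, which bind elements around the letters TGACGTGG, the promoters of the members were searched for these letters on both strands. The letters occurred in 166 of 15843 genes with a RefSeq promoter window of 250 bases before to 50 after a start (1.05%). They occurred in 10 of the 145 members with such a window (6.9%) and in 7 of the 61 that also had a peak (11.5%). These 7 were COPA, COPB1, COPB2, SEC16A, SEC16B, SEC24A and SEC62, which take in all 3 COPI subunits measured here. This was 1 of 11 motifs searched, and it was chosen for display after the matches had been counted. Longer ER stress elements matched 0 of the 145 members, but just 21 and 15 of all 15843 genes, too few to judge. Other motifs also had higher shares in the 145 members than in all genes, such as 11% against 4.68% and 14.5% against 6.97%. The TATA box had a lower share, at 4.83% against 12.4%. An excess was thus not particular to the letters shown. A match is a description of the letters and not of binding. The 4 stretches below, from the RefSeq windows on GRCh38.p14, are printed to show how the letters sit in a COPI, a COPII and an ER entry gene, with the match in capitals (CCACGTCA is the same element read on the opposite strand).
COPB1, chr11:14499822-14499889, minus strand: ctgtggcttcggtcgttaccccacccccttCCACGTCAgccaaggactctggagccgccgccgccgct
COPB2, chr3:139389806-139389873, minus strand: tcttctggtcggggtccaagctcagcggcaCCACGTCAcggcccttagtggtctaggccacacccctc
SEC24A, chr5:134648576-134648643, plus strand: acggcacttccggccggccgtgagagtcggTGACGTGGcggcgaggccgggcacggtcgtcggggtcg
SEC62, chr3:169966760-169966806, plus strand: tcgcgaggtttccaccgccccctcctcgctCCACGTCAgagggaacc
The first base of the match lies at -48 from the start in COPB1, at -179 in SEC24A and at -17 in SEC62, and at -163 and -196 from the 2 starts listed for COPB2. The measured peaks lie elsewhere: 0 of the 131 member peaks overlapped one of these promoter windows. Only 93 of these peaks, in 61 members, belong to a gene with such a window.

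The first comparison asked whether the acRIP counts of the members differed between genotypes in both lines at once. None did by the test: edgeR's quasi-likelihood test with line as a block called 0 of 8107 genes (0%) and 0 of 76 members at an adjusted p of 0.05, and the lowest adjusted p was 0.988. Without adjustment 279 genes had a p under 0.05, among them VPS13C and SEC11C, both with higher counts in the libraries labelled sgNAT10. DESeq2 and limma-trend also called 0 genes, with 220 and 291 below an unadjusted 0.05. The design leaves 1 residual degree of freedom. In data simulated for this comparison with the estimated dispersion, the edgeR test recovered 0 of 200 genes changed 2-fold and 77 of 200 changed 8-fold among 8107. SEC31B was the member with too few counts to be tested.

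Within each line there is 1 library per genotype and no test. The shift given here is the log2 CPM of the library labelled sgNAT10 minus that of NC, with a 95% interval that covers counting error only, and 2-fold is used as a line for counting. In 143B 17 of 76 members were at least 2-fold higher (22.4%, against 21.1% of all genes tested) and 20 were at least 2-fold lower (26.3% against 17.6%). In HOS 7 were at least 2-fold higher (9.21% against 16.7%) and 13 lower (17.1% against 13%). The member median was -0.10 in 143B and -0.22 in HOS, beside 0.18 and 0.03 for all genes tested and 0.14 and -0.12 for protein-coding genes. The split between higher and lower depends on the scaling. With library totals alone it became 22 higher and 10 lower in 143B and 17 higher and 2 lower in HOS. With upper quartile factors it was 21 and 13 in 143B, and with DESeq2-type factors 5 and 17 in HOS. The sign of the member median in 143B turned under upper quartile factors (0.00) and library totals (0.11), and in HOS under library totals (0.36).

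Only 2 members, SEC11C and VPS13C, were at least 2-fold higher in both lines (3.81% of all genes tested were). SEC61A1, SEC23IP, VPS4B, SNX5 and SNX16 were at least 2-fold lower in both (5 of 76, 6.58%, against 1.59% of all genes tested). With library totals alone SEC61A1 was the 1 member left (1.32% against 0.271%), and with upper quartile factors there were 3 (3.95% against 1.22%) and with DESeq2-type factors 7 (9.21% against 2.26%). Taking any size of shift, 23 members (30.3%, against 27.4% of all genes tested) had a positive shift in 143B and a negative one in HOS, and 17 had the reverse (22.4% against 21.9%). A further 14 had positive shifts in both lines (18.4% against 29.2%) and 21 negative ones in both (27.6% against 21.5%).

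**Figure D1:**
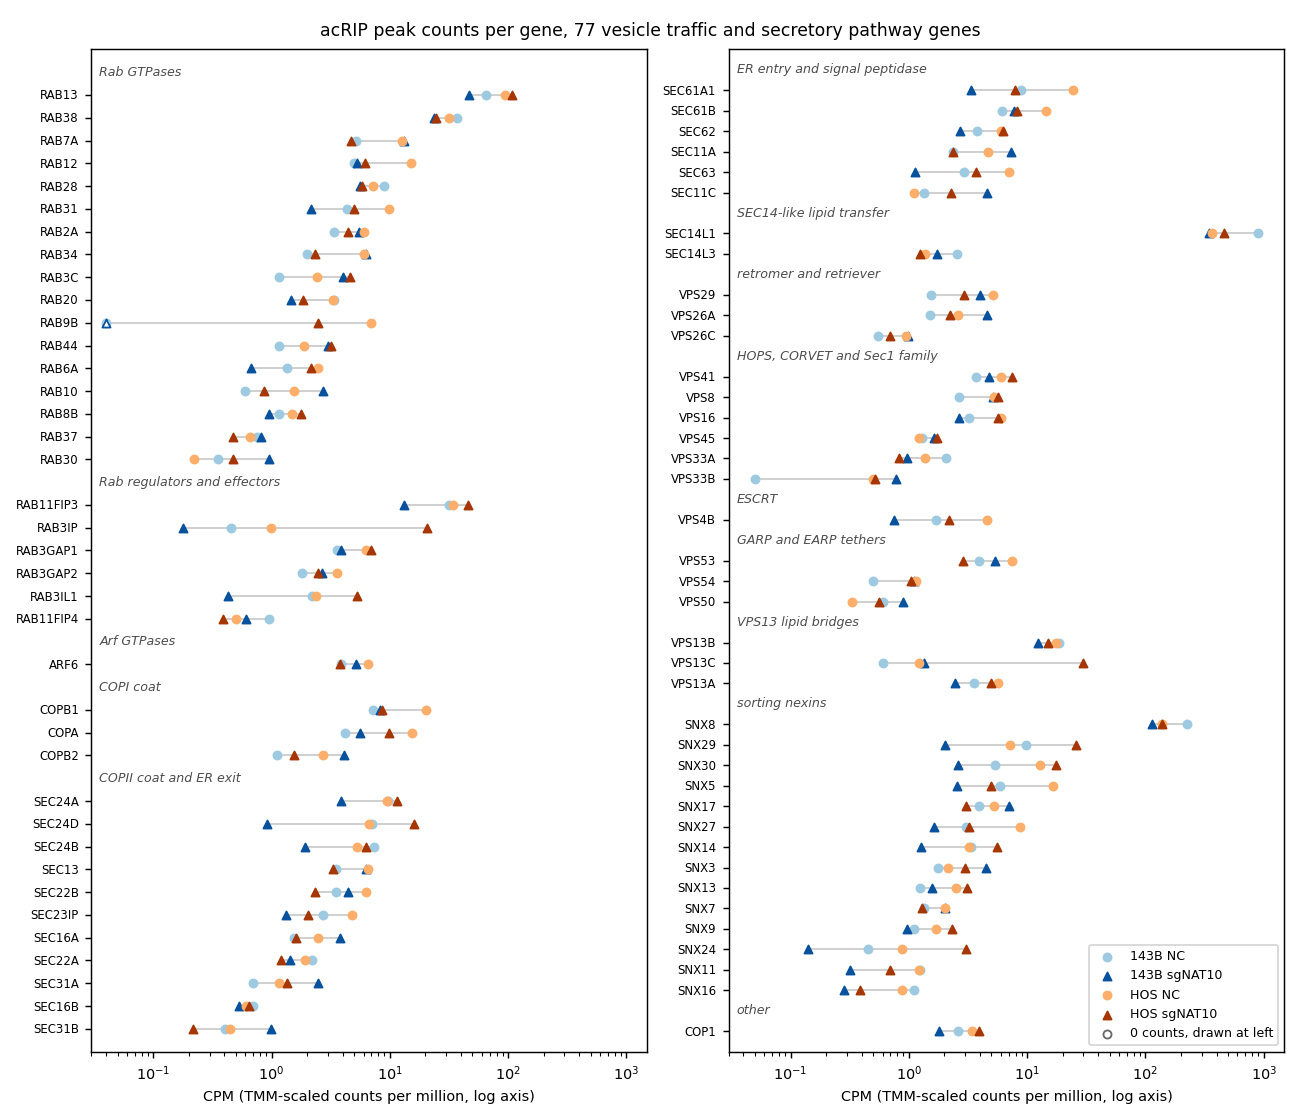
Level of each of the 77 members in CPM (log axis) in the 4 acRIP libraries, grouped by role, with circles for NC and triangles for sgNAT10 and 1 library per point. RAB3IP and VPS13C stand out by the HOS library labelled sgNAT10 (20.6 and 29.9 CPM), and RAB9B has 0 counts in both 143B libraries (open symbols).

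At ER entry, 6 members were measured. SEC61A1, the pore-forming subunit of the SEC61 channel, had 1 peak, chr3:128055479-128055658, with 8.82 CPM in 143B NC, 3.33 in the 143B library labelled sgNAT10, 24.3 in HOS NC and 7.83 in the HOS library labelled sgNAT10. Both knockout-labelled libraries lay below both controls. The shift was -1.39 in 143B (counting interval -1.78 to -1.03) and -1.63 in HOS (-1.89 to -1.38), yet the fit over both lines gave -1.52 with an SE of 0.80 and an adjusted p of 0.988 by edgeR. SEC61B, a small subunit of the same channel, took another course, at 6.11, 7.73, 14.4 and 8.22 CPM in the same library order. Its shifts were 0.34 and -0.81, and HOS NC was the highest library for both subunits.

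SEC63, which couples the channel to the ER chaperone BiP, had 2.91, 1.14, 7.07 and 3.68 CPM, in the order 143B NC, 143B sgNAT10, HOS NC, HOS sgNAT10 that is kept throughout. Its shifts were -1.32 and -0.93, while the levels of the groups overlapped because 143B NC lay below HOS sgNAT10. Its partner SEC62 had 3.81, 2.70, 6.02 and 6.23 CPM, so that the lines differed more than the genotypes.

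SEC11A and SEC11C are alternative catalytic subunits of signal peptidase. SEC11A had 47, 205, 84 and 55 counts, or 2.35, 7.27, 4.64 and 2.38 CPM, and was highest in the 143B library labelled sgNAT10, with HOS NC between it and the other 2. SEC11C had 27, 130, 20 and 53 counts, or 1.35, 4.61, 1.10 and 2.29 CPM. In SEC11C both knockout-labelled libraries lay above both controls, with shifts of 1.74 (1.16 to 2.42) and 1.03 (0.29 to 1.88). The edgeR fit gave SEC11C 1.42 with an SE of 0.63, an unadjusted p of 0.043 and an adjusted p of 0.988. In HOS the shifts of the 2 catalytic subunits had opposite signs, at -0.95 in SEC11A and 1.03 in SEC11C, a difference that has no replicate. Over the 6 genes the median was -0.08 in 143B, where its sign turns under upper quartile factors and library totals, and -0.87 in HOS, negative under all 4 scalings.

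Of the COPII and ER exit genes 11 had a peak and 10 were tested. The SEC24 proteins, the coat subunits that bind cargo, were low in the 143B library labelled sgNAT10. SEC24A had 9.57, 3.87, 9.50 and 11.6 CPM. SEC24B had 7.36, 1.92, 5.24 and 6.28 CPM. In both genes the other 3 libraries lay close together, and the shifts were -1.30 and -1.92 in 143B and 0.28 and 0.26 in HOS. SEC24D, which the collagen-secreting skeleton depends on, showed the widest gap: 140, 26, 120 and 371 counts, or 7.01, 0.922, 6.63 and 16.1 CPM. The control libraries of the lines were alike in SEC24D (difference -0.08), and the knockout-labelled ones lay on either side of them, at -2.87 (-3.59 to -2.32) and 1.27 (0.98 to 1.59). Both SEC24D peaks, chr4:118833631-118833758 and chr4:118835851-118836058, showed this, with -2.91 and 1.06 in one and -2.71 and 1.53 in the other. SEC24C had no assigned peak.

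The outer COPII layer had shifts of the other sign in 143B. SEC31A, which with SEC13 forms the outer cage, had 14, 69, 21 and 31 counts, with shifts of 1.74 and 0.20. SEC13 had 3.51, 6.35, 6.57 and 3.29 CPM, with shifts of 0.85 and -0.99. SEC16A, the scaffold of ER exit sites, had shifts of 1.27 and -0.62. These 3 genes share a peak within 500 bp of the annotated gene end at which transcription finishes, called the finish here, and no SEC24 gene has a peak known to lie there.

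SEC23IP, a phospholipase-related partner of the inner coat, was low in both knockout-labelled libraries, with 2.70, 1.31, 4.80 and 2.03 CPM. Its shifts were -1.02 and -1.22, and both lay below both controls. SEC22B, a SNARE of ER to Golgi transport, had 3.51, 4.40, 6.35 and 2.34 CPM, so that the gap was past 2-fold only in HOS (-1.42). The median of the 10 genes was -0.50 in 143B and -0.26 in HOS, and with library totals alone the second became 0.29.

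All 3 measured COPI subunits had a positive shift in 143B and a negative one in HOS under each of the 4 scalings. With TMM factors 27.4% of all genes tested had these signs. Of protein-coding genes with a peak near the finish, as COPB1 and COPB2 have, 66.3% did. COPB2, the beta-prime subunit, had 22, 115, 49 and 36 counts, or 1.10, 4.08, 2.71 and 1.56 CPM. Its shifts of 1.85 (1.22 to 2.62) and -0.78 (-1.46 to -0.15) were among the furthest apart of the members. COPA, the alpha subunit, had 4.16, 5.57, 15.3 and 9.82 CPM and COPB1, the beta subunit, 7.21, 8.23, 20.1 and 8.57 CPM. Both HOS libraries lay above both 143B libraries in COPA, while in COPB1 HOS NC was high and the other 3 libraries lay close together, with shifts of 0.42 and -0.64 in COPA and 0.19 and -1.23 in COPB1. The adjusted p by edgeR was 0.988 for COPB1 and COPB2 and 0.996 for COPA. ARF6, the Arf GTPase of the cell surface and of recycling endosomes, had 3.86, 5.21, 6.51 and 3.77 CPM, again with HOS NC highest and shifts of 0.43 and -0.78. It was the only Arf GTPase of 5 annotated with an assigned peak.

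Of 64 annotated Rab GTPases 17 had an assigned peak. In 143B 6 of them were at least 2-fold higher (RAB10, RAB30, RAB34, RAB3C, RAB44 and RAB7A) and RAB20 was at least 2-fold lower, beside 21.1% and 17.6% of all genes tested. In HOS 4 were at least 2-fold lower (RAB12, RAB34, RAB7A and RAB9B) and 0 higher, beside 13% and 16.7%, although 3 passed that line upwards and 0 downwards with library totals alone.

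RAB7A, which drives late endosomes to fuse with lysosomes, had 103, 371, 228 and 109 counts, or 5.16, 13.2, 12.6 and 4.72 CPM. The control of one line thus matched the knockout-labelled library of the other. Its shifts were 1.34 (1.03 to 1.68) and -1.41 (-1.76 to -1.08), and they cancelled in the fit over both lines, at -0.03 with an SE of 0.92. RAB34, a Rab of the Golgi and of the early primary cilium, had the same layout: 40, 176, 109 and 54 counts, or 2.004, 6.24, 6.02 and 2.34 CPM, with shifts of 1.62 and -1.35. RAB10, which acts in exocytosis and polarised secretion, had 12, 77, 28 and 20 counts and shifts of 2.10 and -0.81.

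RAB13, a Rab of cell junctions whose mRNA is known to travel to cell protrusions, had 1290, 1323, 1690 and 2478 counts in 4 peaks. Its levels of 64.6, 46.9, 93.3 and 107 CPM were set apart by line, with HOS above 143B in both genotypes, and the shifts were small at -0.46 and 0.20. RAB38, a Rab of melanosomes and other lysosome-related organelles, had 36.8, 23.5, 31.4 and 24.8 CPM. Both knockout-labelled libraries lay below both controls in RAB38, by -0.64 and -0.34, but with library totals alone its shift in HOS was 0.24. Some of its peaks also overlap another annotated gene, among them chr11:87813788-87813977, with shifts of -1.01 and 0.03. The peak chr11:88092326-88092457 had -0.80 and -0.60.

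RAB3C, a Rab of regulated secretory vesicles, had 23, 114, 44 and 106 counts, or 1.15, 4.04, 2.43 and 4.59 CPM. RAB44, a large atypical Rab of immune and bone-resorbing cells, had 23, 85, 34 and 73 counts, or 1.15, 3.01, 1.88 and 3.16 CPM. In both genes both knockout-labelled libraries lay above both controls, with shifts of 1.77 and 0.90 in RAB3C and 1.35 and 0.74 in RAB44. By edgeR their changes over both lines were 1.35 with an SE of 0.66 and 1.06 with an SE of 0.62, each with an adjusted p of 0.988. RAB9B, a Rab of transport from late endosomes to the Golgi, divided the lines. It had 0, 0, 126 and 57 counts, and HOS NC was at least 46.3-fold above 143B NC when 143B is set at 3 counts per library, the limit that a count of 0 allows. In HOS its shift was -1.48 (-1.97 to -1.03).

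Of the 6 Rab regulators and effectors measured, 3 were at least 2-fold lower in 143B and 2 of these were at least 2-fold higher in HOS, beside 17.6% and 16.7% of all genes tested. The 143B count was 1 with library totals alone and 2 with upper quartile factors. RAB3IP and RAB3IL1 are the exchange factors Rabin8 and GRAB, which activate RAB8 and RAB3. RAB3IP had 9, 5, 18 and 476 counts, or 0.451, 0.177, 0.994 and 20.6 CPM. RAB3IL1 had 44, 12, 43 and 122 counts, or 2.20, 0.426, 2.37 and 5.28 CPM. Both were highest in the HOS library labelled sgNAT10 and lowest in the 143B one, with shifts of -1.16 (-3.27 to 0.39) and 4.31 (3.70 to 5.14) in RAB3IP and -2.26 and 1.14 in RAB3IL1. The RAB3IP counts come from 1 peak, chr12:69744160-69744346, and those in 143B are too few to place its shift on either side of 0. CDH1 and KDR, named above, were high in the same library. RAB11FIP3, an effector of RAB11 recycling endosomes, had 31.9, 13.3, 33.9 and 46.3 CPM over 6 peaks and was low only in the 143B library labelled sgNAT10. All 6 of its peaks also overlap another annotated gene, so part or all of these reads may belong to that gene. RAB3GAP1, a subunit of the RAB3 GTPase-activating complex, had 3.61, 3.87, 6.24 and 6.88 CPM, so that lines and not genotypes separated it.

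Retromer returns cargo from endosomes to the Golgi and the cell surface. VPS26A had 1.503, 4.58, 2.59 and 2.25 CPM and VPS29 had 1.55, 3.97, 5.19 and 2.94 CPM. Both retromer subunits were more than 2-fold higher in the 143B library labelled sgNAT10 than in 143B NC, by 1.58 (1.02 to 2.23) and 1.33 (0.77 to 1.98). Their shifts in HOS were -0.20 and -0.81. VPS26C, the retriever counterpart of VPS26A, had 11, 28, 17 and 16 counts and a shift of 0.80 whose interval spans 0. The 3 genes had a median of 1.33 in 143B under TMM and above 1 under the other scalings, and of -0.42 in HOS, which turned to 0.13 with library totals alone. VPS35, the central retromer subunit, had no assigned peak.

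Of 14 sorting nexins 7 were at least 2-fold lower in the 143B library labelled sgNAT10 than in 143B NC (SNX5, SNX11, SNX14, SNX16, SNX24, SNX29 and SNX30), beside 17.6% of all genes tested, and SNX3 was at least 2-fold higher. With upper quartile factors or library totals alone 5 were lower and 2 higher. Of the 7, SNX11, SNX16 and SNX24 rest on few 143B counts (25 and 9, 22 and 8, 9 and 4). The interval of SNX24 spans 0. Protein-coding peaks farther than 500 bp from both gene ends, with mean counts from 50 up, had a 143B median of -0.89. Of these 5074 peaks, 2359 were at least 2-fold lower. By gene sum, the 4630 protein-coding genes with no peak that near an end had a median of 0.02, with 984 at least 2-fold lower. The nexin median was -1.01 in 143B, between -1.09 and -0.66 under the 4 scalings, beside 0.18 for all genes tested. In HOS it was 0.15, with 2 genes at least 2-fold higher and 3 lower, near the 16.7% and 13% of all genes tested, and it was just below 0 with DESeq2-type factors and 0.73 with library totals alone.

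SNX5, a membrane-bending nexin that carries receptors out of endosomes, had 5.91, 2.55, 16.7 and 4.93 CPM. SNX27, which returns cargo to the cell surface together with retromer, had 3.06, 1.63, 8.72 and 3.20 CPM. HOS NC was the highest library in both, and only in SNX5 did both knockout-labelled libraries lie below both controls. The shifts were -1.20 and -1.75 in SNX5 and -0.89 and -1.43 in SNX27, and the edgeR change of SNX5 was -1.49 with an SE of 0.75 and an adjusted p of 0.988.

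SNX29 had 197, 57, 129 and 599 counts over 5 peaks, or 9.87, 2.02, 7.12 and 25.9 CPM. The controls of the 2 lines lay between the knockout-labelled libraries, with shifts of -2.26 (-2.74 to -1.86) and 1.86 (1.59 to 2.15). All 5 peaks had negative shifts in 143B, from -1.20 to -2.88, and positive ones in HOS, from 1.31 to 2.89. SNX30, a partner of SNX4 in recycling, had 5.31, 2.59, 12.9 and 17.4 CPM over 5 peaks, with HOS above 143B in both genotypes. SNX8, a nexin of endosome to Golgi transport, had 4475, 3181, 2514 and 3168 counts, or 224, 113, 139 and 137 CPM. Its high library was 143B NC, and the shifts were -0.99 (-1.06 to -0.92) and -0.02 (-0.09 to 0.06).

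The HOPS and CORVET tethers bring late and early endosomes together before fusion. VPS41, a HOPS subunit, had 3.71, 4.79, 6.07 and 7.53 CPM. VPS8, a CORVET subunit, had 2.65, 5.18, 5.24 and 5.67 CPM, and VPS16, shared by both, had 3.21, 2.66, 6.02 and 5.71 CPM. None of these 3 passed 2-fold in either line, and only 143B NC stood below the rest in VPS8. VPS33A and VPS33B, the Sec1-type subunits of HOPS and of the CHEVI complex, lay on either side in 143B, at -1.07 and 3.12, but VPS33B rests on 1, 22, 9 and 12 counts and its interval runs from 1.33 to 9.33.

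VPS4B, the ATPase that takes ESCRT filaments apart, had 34, 21, 83 and 51 counts, or 1.70, 0.745, 4.58 and 2.21 CPM. It was lower in both lines, by -1.15 and -1.04, while 143B NC still lay below HOS sgNAT10. It was the only one of 9 annotated ESCRT members with an assigned peak. VPS53 and VPS54 of the GARP tether at the Golgi had 3.91, 5.36, 7.40 and 2.90 CPM and 0.501, 1.10, 1.16 and 1.04 CPM, and VPS50, which replaces VPS54 in the EARP tether, had 12, 25, 6 and 13 counts. Within these, VPS53 was low in the HOS library labelled sgNAT10 (-1.34, interval -1.80 to -0.92), its shift in 143B was 0.45 (0.05 to 0.87), and VPS54 and VPS50 have wide intervals.

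The VPS13 proteins are bridges that move lipids between membranes. VPS13C had 12, 38, 22 and 690 counts, or 0.601, 1.35, 1.21 and 29.9 CPM. The HOS library labelled sgNAT10 was more than 20 times above any other, and the shifts were 1.11 (0.20 to 2.24) and 4.57 (4.01 to 5.30). One of its 2 peaks, chr15:61968064-61968238, held 675 of the 690 counts, with 7, 15 and 12 in the other libraries. The peak lies 115675 bp before the finish of the gene. The edgeR change was 2.98 with an SE of 1.07, an unadjusted p of 0.015 and an adjusted p of 0.988. VPS13A had 3.56, 2.45, 5.63 and 4.93 CPM and VPS13B 18.7, 12.4, 17.6 and 14.98 CPM, and neither had a shift past 2-fold.

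The calls of the fit over both lines turn on single libraries. Without the 143B library labelled sgNAT10, edgeR called 2 members, RAB3IP (4.83, adjusted p of 1.99e-05) and VPS13C (5.04, adjusted p of 1.41e-05), among 124 genes. Without the HOS library labelled sgNAT10 it called 1 member, RAB9B (-9.26, adjusted p of 0.0013; its 143B counts are 0, so the size depends on the prior count), among 9 genes. Each of these fits has no line block, so genotype and line are mixed in it, and the genotype left with 1 library is assumed to vary like the other.

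SEC14L1, a SEC14-like protein that binds lipids and is a regulator of RNA sensing rather than a coat protein, held the largest share of the reads of the list. Its 1 peak, chr17:77215157-77216946, is also the widest of the 131 and lies 155 bp from the annotated finish. It had 18073, 9718, 6648 and 10693 counts, or 61.1%, 45.4%, 35.3% and 41.2% of all member counts. On the common scale these were 905, 345, 367 and 463 CPM. 143B NC was the high library and the other 3 lay within 1.5-fold, so the shift was -1.39 (-1.43 to -1.36) in 143B and 0.33 (0.29 to 0.38) in HOS. These narrow intervals reflect the depth and say nothing of the spread between cultures. SEC14L3 had 2.55, 1.74, 1.38 and 1.26 CPM. COP1 had 2.60, 1.81, 3.42 and 3.90 CPM, with shifts of -0.52 and 0.18.

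The scatter of both shifts shows the members across all 4 quadrants. Shifts of at least 2-fold down in 143B and up in HOS marked RAB3IP, SEC24D, SNX29, RAB3IL1 and SNX24, and the reverse marked RAB7A and RAB34 (7 of 76, 9.21%, against 7.07% of all genes tested with such opposite shifts). Of the 23 members with a positive 143B and a negative HOS shift, 10 had a peak near their finish.

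**Figure D2:**
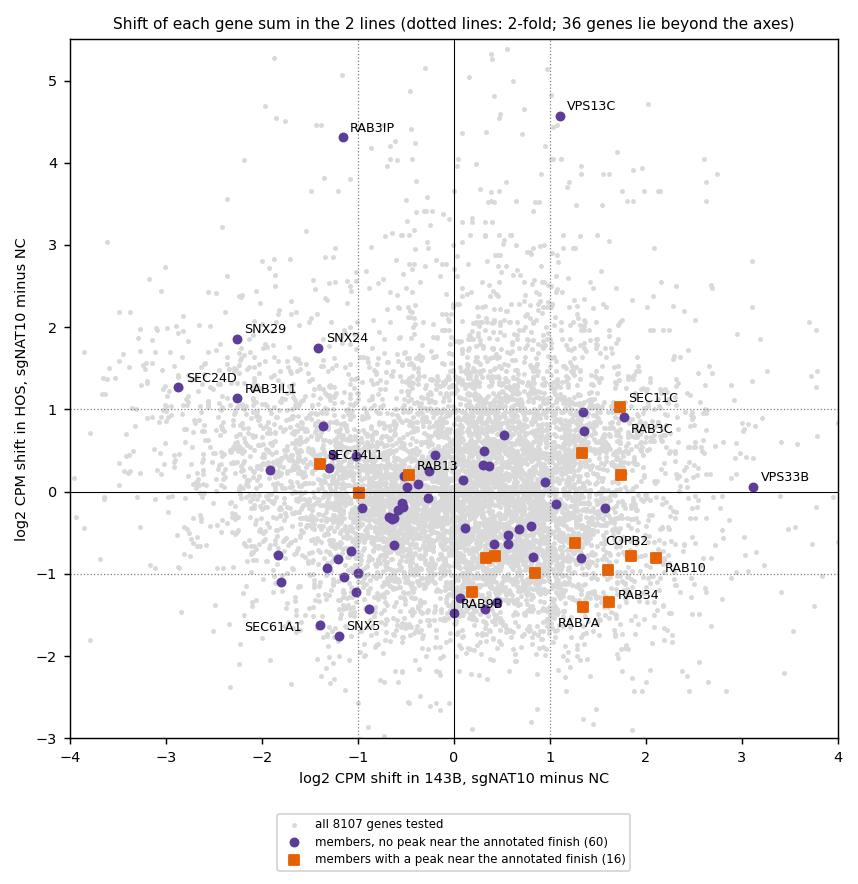
Shift of each gene sum in 143B (x axis) and HOS (y axis), as log2 CPM of sgNAT10 minus NC, for all 8107 genes tested (grey) and the 76 members tested, with squares for the 16 that have a peak within 500 bp of the annotated finish. Most squares sit to the lower right, where 10 of the 16 have a positive 143B and a negative HOS shift, and 36 genes lie beyond the axes.

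Position within the gene was not used in choosing the members. Strand was known for 93 of the 131 member peaks, from the RefSeq promoter windows. Of these, 17 peaks in 16 genes lay within 500 bp of the finish: ARF6, COPB1, COPB2, RAB10, RAB13, RAB34, RAB7A, SEC11A, SEC11C, SEC13, SEC14L1, SEC16A, SEC31A, SEC61B, SNX3 and SNX8. Their median shift was 1.27 in 143B, with 13 of 17 higher, and -0.78 in HOS, with 7 of 17 higher. The 107 member peaks farther than 500 bp from both gene ends had medians of -0.37 and -0.07.

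Peaks near the finish of all protein-coding genes were placed alike, with medians of 0.92 in 143B and -0.64 in HOS over 1198 peaks, of which 86.6% were higher in 143B and 19.3% in HOS. The medians at this position thus had the same signs in all protein-coding genes and in the members. In HOS, however, 41.2% of the member finish peaks were higher, against that 19.3%. At a mean count of 50 or more the 143B medians were 0.85 in the members and 0.81 in all protein-coding genes. Read by gene, 10 of the 16 members with such a peak (62.5%) had a positive shift in 143B and a negative one in HOS, against 66.3% of 1157 protein-coding genes with such a peak. Of the 53 members with no peak near an end 11 were (20.8%), against 22.6% of 4630 genes. In 143B the gap depends on the counts: the 9 finish peaks with a mean count under 100 had a median of 1.62, and the 8 with 100 or more had 0.01. In HOS the same medians were -0.78 and -0.34. Under library totals alone the HOS median of all 17 was -0.21. Just 1 peak lay within 500 bp of a known start, that of SNX11, with 25, 9, 22 and 16 counts and shifts of -1.83 and -0.77. The 289 start peaks of all protein-coding genes had medians of -1.13 and -0.18.

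**Figure D3:**
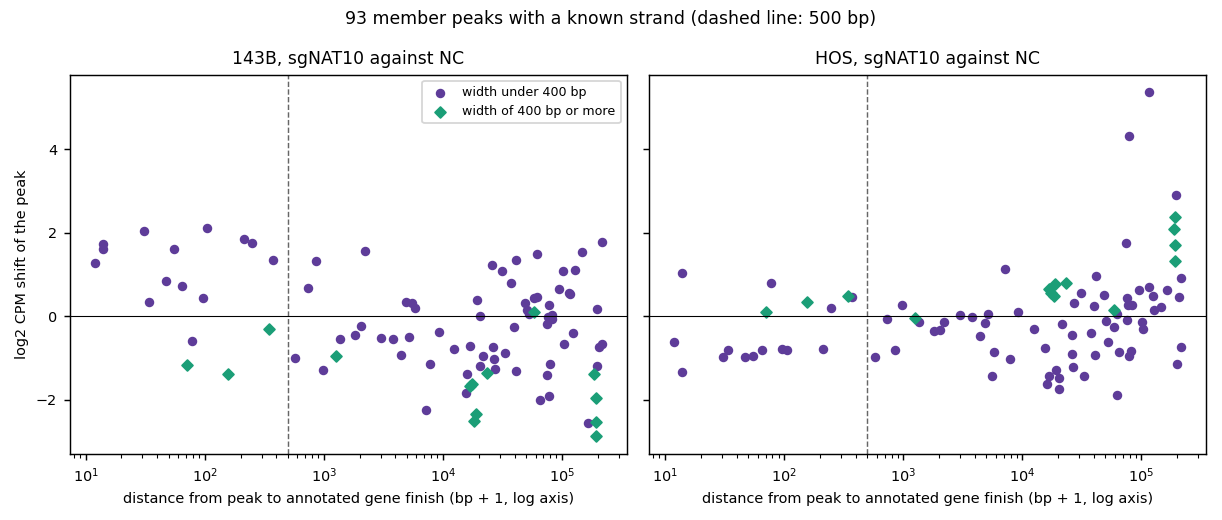
Shift of each of the 93 member peaks with known strand (log2 CPM, sgNAT10 minus NC) against its distance to the annotated finish (bp plus 1, log axis), for 143B at left and HOS at right, with diamonds for peaks of 400 bp or more. Left of the 500 bp line 13 of 17 peaks are above 0 in 143B, and wide peaks far from the finish are mostly below 0 in 143B and above 0 in HOS.

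Width went with another direction. The 12 member peaks of 400 bp or more that lay far from both ends belonged to 6 genes and had medians of -1.65 in 143B and 0.78 in HOS, against -0.08 and -0.15 for the 95 narrower ones. Of these wide peaks 4 lie in RAB11FIP3 and 4 in SNX29, so they are not independent, and the others lie in SNX8, SNX14, SNX30 and RAB3GAP1. In RAB11FIP3 the 4 wide peaks between chr16:503073-503970 and chr16:505831-506235 had shifts of -1.63 to -2.50 in 143B and 0.48 to 0.76 in HOS. The 2 narrow peaks of the same gene had -0.06 and 0.43 in 143B and 0.26 and -0.25 in HOS. All of these RAB11FIP3 peaks, wide and narrow, also overlap another annotated gene. The 1267 wide peaks of all protein-coding genes far from the ends had medians of -1.67 and 0.85, close to those of the members.

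Members with peaks both near the finish and elsewhere allow the peaks of 1 gene to be set side by side. In RAB7A the peak near the finish, chr3:128814649-128814768, had 43, 254, 104 and 67 counts and the upstream peak, chr3:128752364-128752613, had 60, 117, 124 and 42. Their shifts were 2.04 (1.59 to 2.57) and 0.46 (0.00 to 0.94) in 143B, and -0.97 (-1.45 to -0.53) and -1.89 (-2.45 to -1.40) in HOS, so the finish peak lay higher in both lines. COPB1 had 0.71 at the finish and -0.73 and 0.39 upstream in 143B. RAB13 had 0.79 and 0.49 near the finish and -0.36 and -0.49 upstream in HOS, a gap of 1.06, while its 143B peaks were all below 0. In SNX8 the finish peak was the lowest in 143B, at -1.17. In 4 members with both kinds of peak and known strand, the median of the finish peaks was set against that of the peaks far from both ends. The finish median was the higher in 3 of 4 in 143B and in 4 of 4 in HOS. In RAB13 the 143B gap was 0.24, and its finish peak at -0.60 lay below the upstream peak at -0.46. Among all 377 such protein-coding genes the finish median was the higher in 346 in 143B and 216 in HOS, with median gaps of 1.37 and 0.10.

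**Figure D4:**
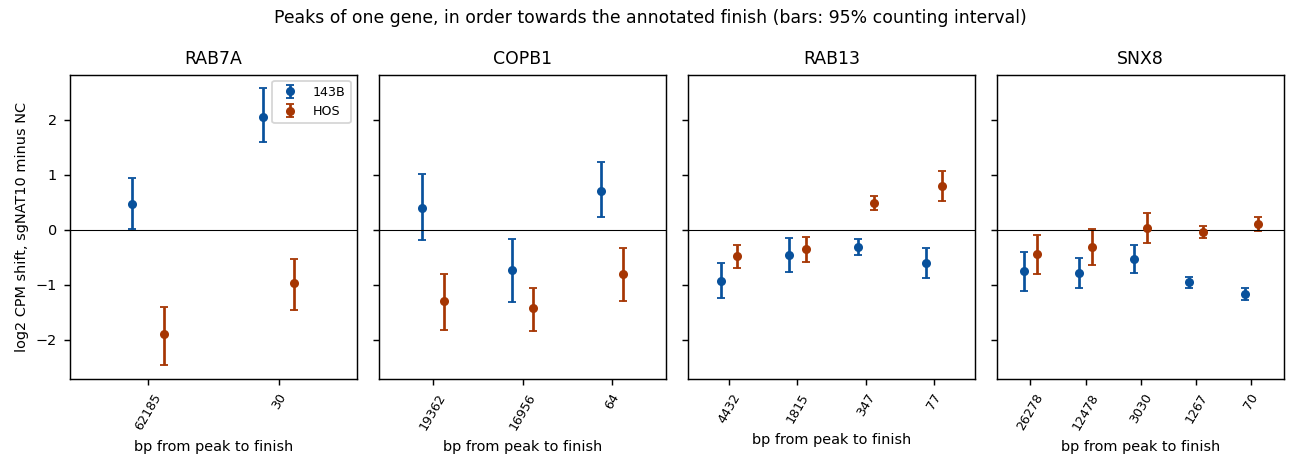
Shift of each peak (log2 CPM, sgNAT10 minus NC, bars for the 95% counting interval) in RAB7A, COPB1, RAB13 and SNX8, ordered towards the annotated finish, whose distance in bp is given under each peak. The finish peak of RAB7A is at 2.04 in 143B and -0.97 in HOS, above the upstream peak in both lines.

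The 2 control libraries were compared to set the genotype shifts against the distance between lines. The members lay higher in HOS NC than in 143B NC: 21 of 76 were at least 2-fold higher (27.6%, against 19.2% of all genes tested) and 1, SEC14L1, was at least 2-fold lower (1.32% against 13.9%). The member median was 0.71, against 0.14 for all genes tested and 0.37 for protein-coding genes. It ranged from 0.29 to 0.81 under the 4 scalings, and with library totals alone 10 members were at least 2-fold higher. The lean was not particular to the members. The 98 tested genes of the pathway lists described below had a median of 0.87, with 39 at least 2-fold higher and 0 lower. By peak, at a mean count of 50 or more, the medians were 0.71 in the members and 0.59 in all protein-coding genes. Apart from RAB9B, COPA (1.87), VPS29 (1.71), RAB12 (1.59) and RAB34 (1.57) were among the members furthest above in HOS NC with 50 or more counts on average. There is 1 library per line, and the difference has no replicate check.

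With 2 controls and 2 knockout-labelled libraries, 9 members had both knockout-labelled levels above both controls (11.8%, against 17.8% of all genes tested): SEC11C, SEC31A, RAB3C, RAB30, RAB44, VPS33B, VPS45, VPS13C and SNX3. The reverse held for 12 members (15.8% against 13.3%): SEC61A1, SEC22A, SEC23IP, RAB20, RAB28, RAB38, VPS13B, VPS33A, SNX5, SNX8, SNX11 and SNX16. Both shares are near or below the background, and the remaining members overlapped.

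Other genes of the route were listed by pathway, 186 in all, and 98 were tested. Their median shift was 0.51 in 143B and -0.56 in HOS. In 143B 26 were at least 2-fold higher (26.5%, against 21.1% of all genes tested) and 15 lower (15.3% against 17.6%). In HOS 5 were higher (5.1% against 16.7%) and 25 lower (25.5% against 13%). Over peaks far from gene ends the 143B median was -0.19, and the HOS median was 0.02 when only library totals were used. None passed the edgeR test.

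Among 17 tested genes of ER translocation and signal peptide processing the medians were 0.81 and -0.66. STT3B, a catalytic subunit of the oligosaccharyltransferase that adds sugars to new proteins, had 18, 155, 52 and 23 counts and shifts of 2.55 and -1.49. Its relative STT3A had -2.16 and -0.66, so the 2 catalytic subunits lay on opposite sides in 143B. TRAM1, which sits beside the channel, had 1.92 and -1.61, and SPCS2, a signal peptidase subunit, 2.54 and -0.11. The 14 coat partners and cargo receptors had medians of 0.72 and -1.10. TMED2, a receptor of the p24 family, had 44, 254, 95 and 47 counts and shifts of 2.01 and -1.35, TMED10 had 1.54 and -0.22, and MIA3, which loads collagen into COPII carriers, had 1.01 and -1.60. ERGIC2 was the lowest in 143B at -2.84, with -1.47 in HOS.

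The 13 SNAREs and fusion factors had medians of 0.21 and -0.32. VAMP7, a SNARE of late endosomes and lysosomes, had 10, 13, 27 and 366 counts and shifts of -0.11 and 3.37, a layout shared with RAB3IP and VPS13C in which only the HOS library labelled sgNAT10 is high. VTI1A was highest in 143B at 1.25, and NAPA had -1.73 and -1.35. The 10 tested Golgi tethers had medians of -0.44 and -0.43, with TRAPPC10 at -1.67 and -1.66, GOLGA1 at 1.89 and 0.34 and TRAPPC9 at -0.79 and 1.63.

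The exocyst, which tethers secretory vesicles at the cell surface, had 5 subunits tested, from EXOC5 with 6, 90, 24 and 16 counts (3.23 and -0.89) to EXOC3 (-1.96 and -0.58), with EXOC4 at 0.73 and 0.63. The 13 clathrin and adaptor genes stayed closer to 0 in 143B, with medians of -0.19 and -0.71. CLTC, the clathrin heavy chain, had -0.19 and -1.44, DNM2, the dynamin that cuts vesicles free, -1.04 and -0.94, GGA1 1.06 and -0.34 and AP2A2 -0.66 and 0.74. The 7 ESCRT and WASH partners had 0.76 and -0.38, with CHMP2B at 1.79 and -1.12 and CHMP1A at 0.82 and -1.25. The 10 Arf regulators had -0.74 and -0.63, with ASAP1 at -1.69 and -0.92 and ACAP2 at 0.48 and -1.54, and the 9 Rab regulators of the lists had 0.52 and -0.03, with RIN1 at 1.21, TBC1D22A at -1.99 and TBC1D15 at 1.07 in HOS.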

How the data were processed

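Read counts per peak were used as deposited by the authors, in 1 table per line with the same 31395 intervals. The 4 count columns carry no assay name, and the name of each table (RIP counts) is the ground for reading them as acRIP. Inputs were not used here. The submitters' processing notes name GRCh38, FastQC, STAR, SAMtools and deepTools. The peak caller, counting tool, strand setting, treatment of multiply mapped reads and the base from which starts are counted are not given in the sources used here. Positions are those of the tables. A further 7 columns were blank.

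Peaks were assigned to the 1 protein-coding gene they overlap, or else to the only gene of any kind, in a GRCh38 table of 59792 genes that holds no exons, so whether a peak is exonic is not given. By this 19103 peaks fell to 9098 genes, 709 overlapped several and 11583 lay outside. Counts were summed per gene. Strand came from RefSeq promoter windows, and a peak within 500 bp of a gene end was near it. Gene sums passing filterByExpr (minimum count of 10, minimum total of 15) were tested with edgeR 4.0.16 (R 4.3.3) with line as a block and Benjamini-Hochberg adjustment. TMM factors were set on all peaks that pass the filter. DESeq2 1.42.0, limma 3.58.1, other scalings, filters, peak subsets and leaving out each library were alternatives. Shifts used a prior count of 1. Counting intervals are exact conditional binomial bounds at 95% and cover counting error only, since the reads carry no molecular identifiers. Each line and genotype has 1 library, with no repeat culture, so p-values measure the spread between these samples only. A shift mixes RNA level with enrichment. The edgeR test was tested on simulated data.

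Values in all libraries are given for the 3 members of each role with the highest mean CPM, the 5 lowest and 5 highest mean shifts, and the 5 largest and 5 smallest differences between lines (mean count of 50 or more), 45 in all, and for a few more chosen after their values were seen. Of each list of other pathway genes at most 4 are named, the highest and lowest per line. Members and lists were chosen with earlier results of these data known.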

Additional observations from a re-analysis of the deposited data

Results flagged for a closer look

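In 7 members the libraries labelled sgNAT10 went opposite ways in the 2 lines by at least 2-fold each, with 1 library per line and genotype, so that the difference between lines was not tested. Such opposite shifts were found in 9.21% of the members and 7.07% of all genes tested. With library totals alone RAB7A, RAB34 and RAB3IP no longer passed 2-fold in both lines, at -0.83 and -0.77 in HOS for the first 2 and -0.87 in 143B for RAB3IP. The values are the shift in 143B minus that in HOS on the log2 scale. The difference was -5.47 in RAB3IP, where it rests on 9 and 5 counts in 143B and 18 and 476 in HOS. It was -4.14 in SEC24D, -4.12 in SNX29 and -3.40 in RAB3IL1. SNX24 had -3.16, with 9, 4, 16 and 71 counts. RAB34 and RAB7A were the reverse, at 2.97 and 2.75. The 143B library labelled sgNAT10, which stood apart from the others and has more NAT10 counts than its control, enters each of these values, and its part in them was not tested.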

How the results depend on the processing

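The number of members called by the fit over both lines stayed at 0 under DESeq2, limma-trend, no line block, DESeq2-type factors, both filters and peaks in 1 gene, and ranged from 0 to 2 when single libraries were left out (RAB3IP and VPS13C without the 143B library labelled sgNAT10, RAB9B without the HOS one). The line block already pairs the NC and sgNAT10 libraries of a line, and the labels carry no replicate numbers for another pairing. With peaks near gene ends only, the member median was 0.85 in 143B and -0.77 in HOS, and the counts past 2-fold were 11 higher and 5 lower for 143B, 2 each way for HOS, by construction from fewer genes. With peaks far from ends only, 7 were higher in 143B and the median of other pathway genes there was -0.19. Keeping mean counts from 100 up left 2 higher and 10 lower in 143B, 4 higher and 6 lower in HOS, and a finish peak median of 0.0123 in 143B. Library totals alone, whose factors shift every value, gave a HOS member median of 0.36, 10 lower in 143B, 17 higher and 2 lower in HOS, and HOS medians of 0.0197 for other pathway genes, -0.21 for finish peaks and 0.50 for far peaks. Upper quartile factors gave 13 lower in 143B. Members at least 2-fold higher in HOS NC than in 143B NC numbered 10 with library totals, 10 with mean counts from 100 up and 6 near ends, against 21. The alternatives for the control lines, other pathway genes and peak positions and for shifts past 2-fold in both lines were chosen after seeing the data. Among the 45 genes chosen by rule, no shift past 2-fold reversed under the alternatives run. With library totals alone, 45 of their 90 shifts moved outside the counting interval, and 80 of 90 kept their sign. With DESeq2-type and upper quartile factors 6 and 8 of 90 moved. Genes named beyond these 45 were not part of this check. Relative to TMM, DESeq2-type factors added -0.08 and -0.15 to the median of all genes in 143B and HOS, upper quartile factors 0.21 and -0.09, and library totals 0.34 and 0.56. Depth limits the members with few counts: the median half-width of the counting interval was 0.60 in 143B and 0.49 in HOS.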
